A study of Mus musculus with 3 samples.

Results

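Genes that repair DNA and halt the cell cycle when DNA is damaged were examined in 3 fibroblast lines grown from the mouse forestomach. The list held 37 genes of 6 pathways, given by name and drawn up with earlier results of these data known, of 19938 genes that could be named on the array. A value was found for 36 of them, and Xrcc2 was the member without one. By pathway, 11 belonged to homologous recombination, 8 to the Fanconi anaemia pathway, 7 to checkpoint signalling, 1 to mismatch repair, 4 to non-homologous end joining and 5 to excision repair. Each line contributed 1 Affymetrix Mouse Gene 1.0 ST array, so no difference has a replicate check and no p-value is given.

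The lines were FSP1-positive (FSP1 is the product of S100a4, used to mark fibroblasts) and were grown in serum to subconfluency at low passage. The wild-type line came from normal forestomach, the Tgfbr2 cKO line from a forestomach squamous cell carcinoma, and the Tgfbr2/Smad4 cKO line from normal forestomach. Here cKO stands for conditional knockout, Tgfbr2 encodes the type II TGF-beta receptor, and Smad4 encodes the SMAD protein that TGF-beta and BMP signals share. The donor mice were C57BL6 and BALBc mixed, male or female, and the labels assign no strain, sex or age to a line. The sources used here do not name the Cre driver. The Tgfbr2 cKO line therefore differs from wild type in genotype and tissue of origin together, and the effects of these cannot be told apart.

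Homologous recombination copies an intact sister strand to mend a break through both strands of DNA, and so works mainly in cells that are replicating or have replicated their DNA. The Fanconi anaemia pathway removes crosslinks between the strands, and checkpoint kinases such as ATR and CHK1 hold the cell cycle while forks are stalled. End joining, in contrast, reseals broken ends throughout the cell cycle, and excision repair cuts out damaged bases or nucleotides. Many recombination, Fanconi and checkpoint genes are known E2F targets whose transcripts rise as fibroblasts enter S phase, whereas most end-joining and excision repair genes are transcribed in resting cells too.

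The 3 arrays had medians of 6.63, 6.63 and 6.63 on the log2 scale over 35556 probe sets. Tgfbr2 read 10.25, 10.25 and 10.29 in the wild-type array, the array labelled Tgfbr2 cKO and the array labelled Tgfbr2/Smad4 cKO, and Smad4 read 11.06, 11.06 and 11.04. These are whole-transcript values, which need not fall when a few exons are deleted, so they check nothing about the labels, and the arrays are named as labelled. The 11 fibroblast markers averaged 12.69, 12.75 and 12.79, but single markers differed from wild type in the Tgfbr2/Smad4 cKO array, Thy1 by -2.36, S100a4 by -0.48, Pdgfra by 1.40 and Lum by 1.21. In contrast, the 5 endothelial markers averaged 6.02 in each array. Xist, the RNA of the inactive X chromosome, read 5.33, 5.35 and 9.44 and the Y-linked Eif2s3y 10.12, 10.00 and 5.01, so the Tgfbr2/Smad4 cKO array also differed in its sex pattern. In its comparison with wild type, the effects of genotype and sex cannot be told apart. Exactly equal values were common in the deposited table. Of all named genes, 47.9% had the same value in the 3 arrays, as had 10 of the 36 members, and a difference of 0 shows only that the deposited values were tied.

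The promoters of 4 members are shown here because the members that differed most and least could be set side by side. Fancb and Chek1 were at least 2-fold lower in the Tgfbr2/Smad4 cKO array than in wild type, while Xrcc6 and Lig4 had the smallest range among the members averaging above the 75th percentile of signals. Exo1, the other member at least 2-fold lower, had no entry among the RefSeq promoters. Each window runs from 250 bases before to 50 bases after the annotated start in RefSeq GRCm38.p6, and the upstream window was taken for Lig4, which had more than 1. Capitals mark words of the E2F binding site, as searched below.
Fancb, chrX:164980342-164980641, + strand: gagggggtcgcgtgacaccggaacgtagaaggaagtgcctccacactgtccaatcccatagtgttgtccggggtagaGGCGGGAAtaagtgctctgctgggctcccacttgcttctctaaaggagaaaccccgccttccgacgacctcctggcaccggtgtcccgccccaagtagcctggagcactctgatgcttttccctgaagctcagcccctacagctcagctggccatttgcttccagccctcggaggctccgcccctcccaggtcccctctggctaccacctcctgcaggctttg
Chek1, chr9:36726609-36726908, - strand: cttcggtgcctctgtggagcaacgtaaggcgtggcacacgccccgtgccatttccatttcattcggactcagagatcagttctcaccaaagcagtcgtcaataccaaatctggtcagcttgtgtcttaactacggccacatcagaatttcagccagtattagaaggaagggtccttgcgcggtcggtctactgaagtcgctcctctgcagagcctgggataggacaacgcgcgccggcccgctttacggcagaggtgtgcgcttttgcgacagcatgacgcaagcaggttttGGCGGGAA
Xrcc6, chr15:82016119-82016418, + strand: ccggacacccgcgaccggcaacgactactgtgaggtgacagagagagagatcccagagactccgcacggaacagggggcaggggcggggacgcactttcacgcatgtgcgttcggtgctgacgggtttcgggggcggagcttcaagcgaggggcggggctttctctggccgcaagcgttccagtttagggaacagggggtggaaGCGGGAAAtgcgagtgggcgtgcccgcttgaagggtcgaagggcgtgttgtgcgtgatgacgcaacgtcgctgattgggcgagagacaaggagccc
Lig4, chr8:9977631-9977930, - strand: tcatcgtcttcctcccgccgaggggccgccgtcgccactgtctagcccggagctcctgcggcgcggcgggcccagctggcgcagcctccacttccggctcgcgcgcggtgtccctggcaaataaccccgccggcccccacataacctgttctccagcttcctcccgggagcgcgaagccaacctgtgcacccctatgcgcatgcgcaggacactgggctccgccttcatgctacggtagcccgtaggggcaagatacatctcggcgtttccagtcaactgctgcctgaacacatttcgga

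The Tgfbr2 cKO array differed little from wild type in these genes. None of the 36 members was at least 2-fold higher or lower, against 0.0201% and 0.00502% of all named genes, and none reached 1.5-fold, against 0.14% higher and 0.105% lower. The direction was nevertheless uneven, with 17 members below wild type, 18 equal to it and 1 above it. Over all named genes 15.0% were below, 66.8% equal and 18.2% above. Exo1 had the largest difference, at -0.39 on the log2 scale, followed by Fanci at -0.27 and Fancb at -0.26. The member above wild type was Ercc1, at 0.18. The median difference was 0 for the members and 0 for all named genes.

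In the Tgfbr2/Smad4 cKO array 9 of the 26 recombination, Fanconi and checkpoint genes were at least 1.5-fold lower than in wild type, 10 more were below it by less, 6 were tied and 1 was above. None of the 10 end-joining, mismatch and excision repair genes reached 1.5-fold, and 6 of them were tied, 2 below and 2 above. For so few genes, 0 is near the share of all named genes, 3.12% lower and 2.08% higher. At least 2-fold lower were 3 of 36 members (8.33%), against 1.3% of all named genes, and 0 members were at least 2-fold higher, against 0.722%. At 1.5-fold the counts were 9 lower (25.0%) against 3.12%, and 0 higher against 2.08%. Of these 9, 5 were among the 11 recombination genes, 2 among the 8 Fanconi genes and 2 among the 7 checkpoint genes. In all, 21 members were below wild type, 12 equal and 3 above, against 22.8%, 52.3% and 24.8% of all named genes. The median difference was -0.11 for the 36 members, -0.26 for the 26 recombination, Fanconi and checkpoint genes, 0 for the other 10, and 0 for all named genes. Limiting both sides to genes that averaged at or above the median signal left 28 members, with 2 at least 2-fold lower and 7 at least 1.5-fold lower, against 2.14% and 4.98% of the 11695 named genes that met it.

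The comparison of the Tgfbr2/Smad4 cKO array with the Tgfbr2 cKO array shares the former with the comparison just given. These lines differ in genotype, tissue of origin and sex pattern together, and the effects of these cannot be told apart. Between these arrays 1 of 36 members was at least 2-fold lower, against 1.34% of all named genes, and 0 were at least 2-fold higher, against 0.782%. At least 1.5-fold lower were 8 members (22.2%), against 3.43%, and 0 were at least 1.5-fold higher, against 2.1%. The median was -0.029. Exo1 was the member at least 2-fold lower, and Chek1 and Rad54b, at -0.96 each, and Fancb, at -0.92, fell just short of it. Across the 3 arrays, 21 of 36 members (58.3%) had their lowest value in the Tgfbr2/Smad4 cKO array, against 20.7% of all named genes. Of the 21, 14 also had a Tgfbr2 cKO value between the other arrays. Some of these were near-ties, as Brip1 and Blm were only -0.0056 and -0.0074 from wild type in Tgfbr2 cKO. This order was not counted over all named genes, so no stepwise difference is read from it.

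**Figure D1:**
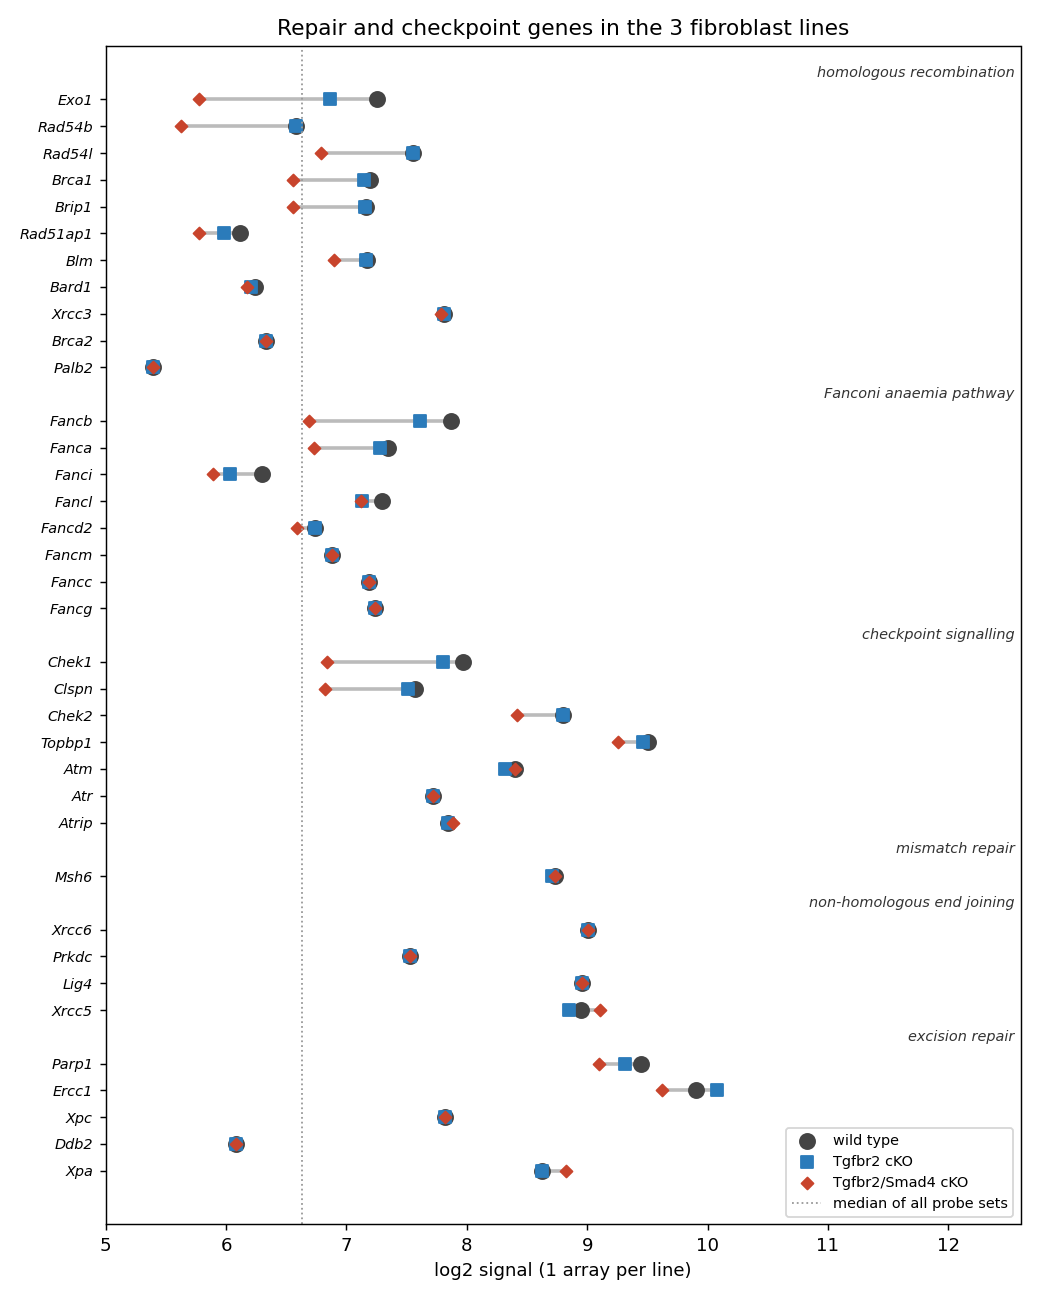
Log2 signal of each of the 36 members with a value in the wild-type (circle), Tgfbr2 cKO (square) and Tgfbr2/Smad4 cKO (diamond) array, 1 array per line, ordered within each pathway by the difference of Tgfbr2/Smad4 cKO from wild type. The grey bar joins the lowest and highest array of a gene, and the dotted line marks the median of all probe sets, 6.63. The longest bars are those of Exo1, Fancb and Chek1, while 10 members overlie in all 3 arrays.

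Among the recombination genes, Exo1, Rad54b and Rad54l had the largest differences. Exo1, the exonuclease that resects broken ends and also serves mismatch repair, read 7.26 in wild type, 6.86 in Tgfbr2 cKO and 5.78 in Tgfbr2/Smad4 cKO. It was thus -1.48 from wild type in the Tgfbr2/Smad4 cKO array, a 2.79-fold difference, and that array was the only one of the 3 in which it lay under the median signal. These Rad54 genes encode motor proteins that act on DNA during strand exchange. Rad54b read 6.58, 6.58 and 5.63 in the same order, under the median signal in each array, and Rad54l read 7.55, 7.55 and 6.79. Both were tied in the first pair of arrays and lower in the third, by -0.96 and -0.77.

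Brca1, whose product directs broken ends into recombination, read 7.20 in wild type, 7.14 in Tgfbr2 cKO and 6.55 in Tgfbr2/Smad4 cKO, a difference of -0.64 from wild type. Brip1, a helicase that binds BRCA1, read 7.16, 7.16 and 6.56, a difference of -0.61. The other partners of BRCA1 did not share this size of difference. Bard1, with which it forms a ubiquitin ligase, read 6.24, 6.21 and 6.17. Brca2, a mediator of recombination, and Palb2, which links it to BRCA1, had tied values of 6.33 and 5.39 in every array, both under the median signal. Smaller differences from wild type in the Tgfbr2/Smad4 cKO array were found for Rad51ap1 at -0.34, for the helicase gene Blm at -0.27 and for the recombination gene Xrcc3 at -0.021.

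Among the Fanconi genes, the largest differences lay in the core complex, the ubiquitin ligase that recognises a crosslink. Fancb read 7.87 in wild type, 7.61 in Tgfbr2 cKO and 6.69 in Tgfbr2/Smad4 cKO, which was -1.17 from wild type or 2.26-fold. Fancb lies on the X chromosome, and whether the differing sex pattern of the arrays bears on it was not tested. Fanca read 7.34, 7.27 and 6.73, a difference of -0.61. The core genes Fancc and Fancg had tied values in the 3 arrays, at 7.19 and 7.24. Fancl, the ligase subunit of the complex, read 7.30, 7.13 and 7.12, so that its difference lay between wild type and the other arrays. The complex's targets Fancd2 and Fanci, which it ubiquitinates, were -0.15 and -0.41 from wild type in the Tgfbr2/Smad4 cKO array, and the translocase gene Fancm was -0.0059 from it.

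Among the checkpoint genes, the largest differences were those of the effector kinase of the replication checkpoint and of the protein that presents it for activation, while the kinase above them was tied. Chek1, which encodes CHK1, read 7.97 in wild type, 7.80 in Tgfbr2 cKO and 6.84 in Tgfbr2/Smad4 cKO, a difference of -1.13 or 2.19-fold from wild type. Clspn, whose product claspin brings CHK1 to its activating kinase, read 7.57, 7.51 and 6.83, a difference of -0.74. Atr, which encodes that kinase, had a tied value of 7.72 in the 3 arrays, and its partner gene Atrip read 7.85, 7.85 and 7.89. Topbp1, an activator of ATR, was -0.25 from wild type in the Tgfbr2/Smad4 cKO array. In the branch that answers breaks, Atm read 8.40, 8.31 and 8.40, and its effector kinase gene Chek2 read 8.80, 8.80 and 8.42, a difference of -0.38.

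**Figure D2:**
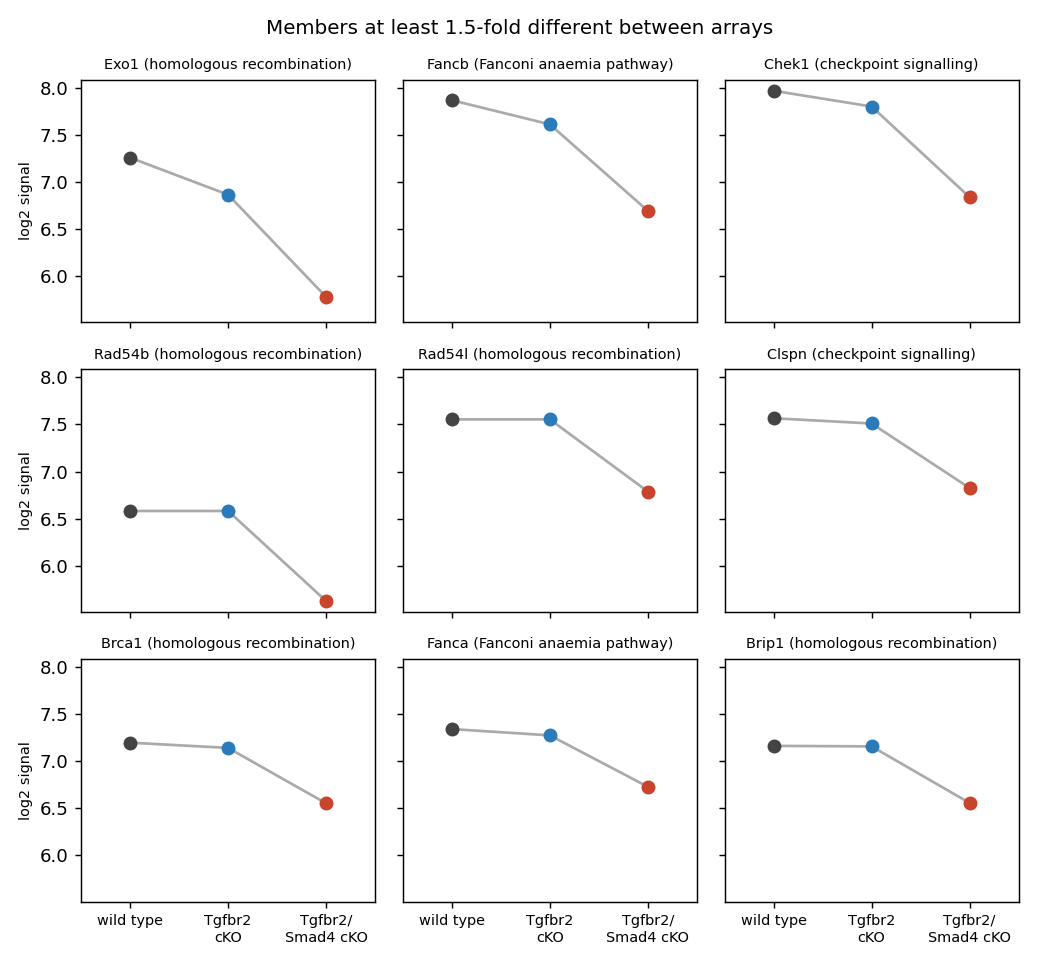
Log2 signal of the 9 members at least 1.5-fold different in any comparison, with 1 point per array and a line joining the points of a gene. All 9 have their lowest value in the Tgfbr2/Smad4 cKO array, between 5.63 for Rad54b and 6.84 for Chek1. Between the wild-type and Tgfbr2 cKO points the largest difference is that of Exo1, at -0.39. No member reached 1.5-fold between those 2 arrays, so an extreme value in the Tgfbr2/Smad4 cKO array follows from how the 9 were chosen.

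The other pathways gave smaller differences. For end joining, Xrcc6 and Xrcc5 encode the Ku proteins that cap a broken end, Prkdc the kinase they recruit and Lig4 the ligase that seals it. Xrcc6, Prkdc and Lig4 had tied values of 9.004, 7.53 and 8.96 in every array. Xrcc5 read 8.94 in wild type, 8.85 in Tgfbr2 cKO and 9.11 in Tgfbr2/Smad4 cKO, and so was highest in the array where Exo1 and Chek1 were lowest. Msh6, a subunit of the mismatch sensor, read 8.73, 8.71 and 8.73.

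Among excision repair genes, the nuclease gene Ercc1 read 9.90 in wild type, 10.08 in Tgfbr2 cKO and 9.62 in Tgfbr2/Smad4 cKO. It stood at 0.18 and -0.28 from wild type in the knockout arrays, and so had opposite signs there, as had Xrcc5. Parp1, a sensor of nicked DNA, read 9.44, 9.32 and 9.10, a difference of -0.34 in the last array. Xpa, a scaffold of nucleotide excision repair, read 8.63, 8.63 and 8.83. Xpc and Ddb2, which detect the lesion, were tied at 7.82 and 6.08, the latter under the median signal. Of 20 p53 target genes listed for comparison, 17 had a value, and Cdkn1a, Bax and Gdf15 had none. The 17 had a median difference from wild type of 0.20 in the Tgfbr2/Smad4 cKO array. Of them 11 were above 0, 2 below and 4 equal, against 24.8%, 22.8% and 52.3% of all named genes. The proapoptotic Pmaip1, at -1.90, was the member of that list at least 2-fold different.

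Other genes of the same repair and checkpoint pathways were counted in the same way. Of 112 that were listed, 101 had a value, and 2 were at least 2-fold and 9 at least 1.5-fold lower in Tgfbr2/Smad4 cKO than in wild type, against 1.3% and 3.12% of all named genes. At 2-fold this was near the share of all named genes. On the higher side 0 reached 2-fold and 1 reached 1.5-fold, and the median of the 101 was 0. By pathway, 4 of 28 recombination, 1 of 10 Fanconi, 2 of 15 checkpoint and 2 of 36 excision repair genes were at least 1.5-fold lower. The medians of these groups were 0, 0, -0.086 and 0. The lower medians of the recombination and Fanconi members were thus not found in the other listed genes of their pathways. Cdc25c, the phosphatase that CHK1 restrains, read 7.49 in wild type, 7.44 in Tgfbr2 cKO and 5.65 in Tgfbr2/Smad4 cKO, a difference of -1.84. Fignl1, which encodes an ATPase, read 7.82, 7.59 and 6.37, a difference of -1.45. In the remaining groups the largest differences from wild type were -0.61 for Usp1, which deubiquitinates FANCD2, -0.82 for the replicative ligase gene Lig1, 0.34 for the mismatch repair gene Mlh3 and 0.20 for the end-joining gene Xrcc4.

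Genes of DNA synthesis and mitosis were lower in the same array. Of 33 replication genes with a value, 7 were at least 2-fold and 16 at least 1.5-fold lower in Tgfbr2/Smad4 cKO than in wild type, with 32 below 0 and a median of -0.54, where 1.3% and 3.12% of all named genes were as much lower. Of 29 mitosis genes, 27 were at least 2-fold lower, against the same 1.3%, and 29 below 0, with a median of -1.69. The mean level of the replication list was 8.75 in wild type, 8.69 in Tgfbr2 cKO and 8.08 in Tgfbr2/Smad4 cKO, and that of the mitosis list 9.08, 8.84 and 7.42, while that of the 36 members was 7.63, 7.57 and 7.34. The helicase gene Mcm6 differed from wild type by -1.95 and the spindle checkpoint gene Bub1 by -2.64 in the last array. The share of cycling cells was not measured, and in a bulk sample fewer cycling cells and less RNA per cell cannot be told apart, so its part in the repair genes' difference was not tested.

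Some markers of other cell types differed as well. All 7 smooth muscle markers were below wild type in that array, against 22.8% of all named genes. Their mean levels were 12.42, 12.40 and 10.81 in the 3 arrays. The 4 mesothelial markers, with mean levels of 8.45, 7.76 and 7.06, were below wild type in both knockout arrays, with medians of -0.64 and -0.83. Of all named genes, 15.0% and 22.8% were below wild type there. Upk3b, at -1.07, was at least 2-fold lower in Tgfbr2 cKO, against 0.00502% of all named genes. In Tgfbr2/Smad4 cKO Upk1b and Upk3b were -3.48 and -1.14 from wild type, where 1.3% of all named genes were at least 2-fold lower. Between the knockout arrays the median difference of the 4 markers was -0.069. Upk1b, at -2.65, was the 1 mesothelial marker at least 2-fold lower, against 1.34% of all named genes. Epithelial markers averaged 6.67, 6.64 and 6.35, and leukocyte markers 6.32, 6.52 and 6.20. In the Tgfbr2/Smad4 cKO array 3 of 9 epithelial markers were below wild type and 6 tied, with Krt19 at -1.89. Of 7 leukocyte markers 2 were below, 4 tied and 1 above. With so few genes these counts are near the 22.8% of all named genes below wild type. They give no sizes, and single leukocyte markers differed between the arrays. Lyz2 read 8.70 in wild type, 9.52 in Tgfbr2 cKO and 7.75 in Tgfbr2/Smad4 cKO, and Cd68 read 7.01, 7.51 and 6.76. Cd79a, the marker above wild type, read 4.25, 4.29 and 4.63. The part of these cell type markers in the repair genes' difference was not tested.

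**Figure D3:**
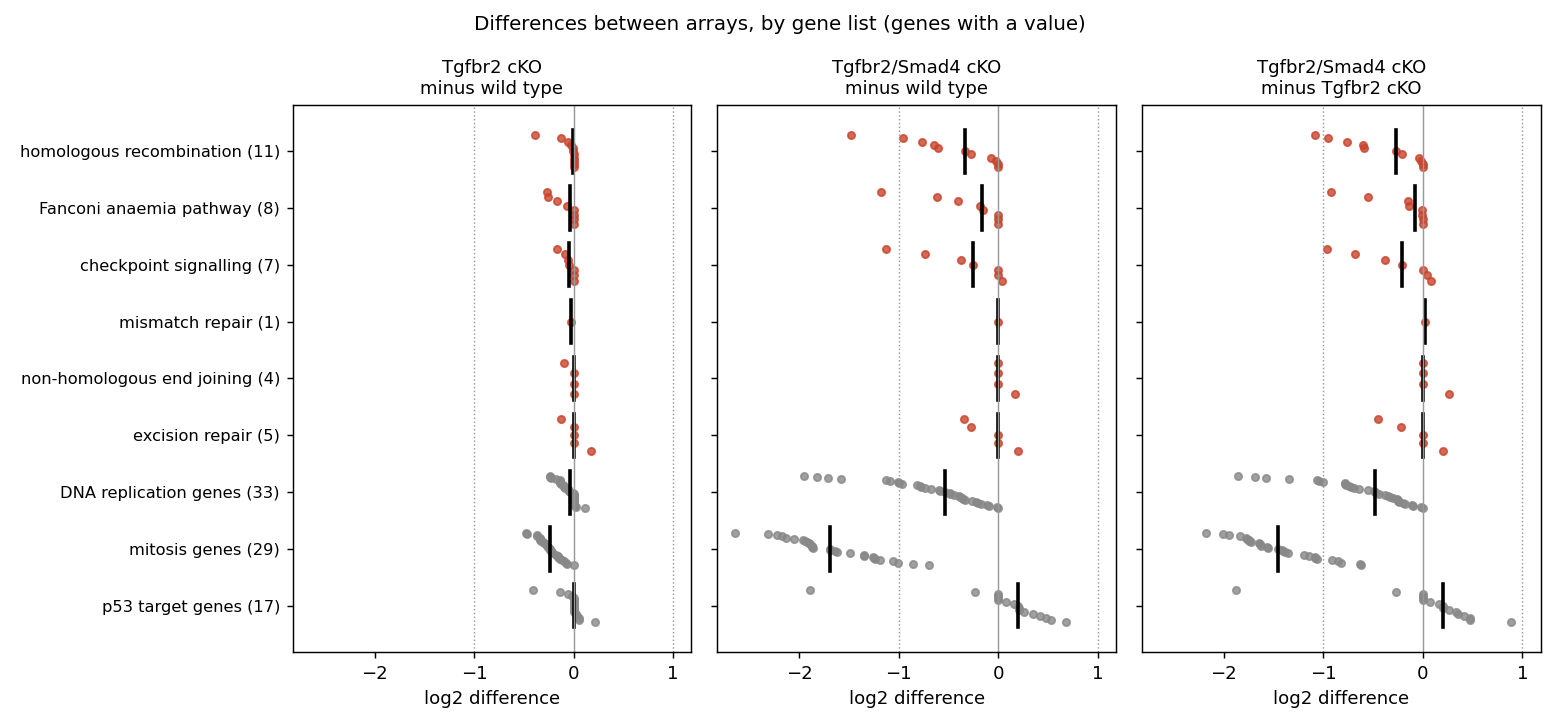
Log2 differences between arrays for each gene with a value (points), by list, with the list median as a black bar and dotted lines at 2-fold, and with the number of genes in brackets. Red points are repair and checkpoint genes and grey points the replication, mitosis and p53 target genes. In the middle panel the recombination, Fanconi and checkpoint medians are -0.34, -0.17 and -0.25, against -0.54 for replication and -1.69 for mitosis.

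The promoter windows were searched on both strands for words known from E2F binding, TTTCCCGC, TTTCGCGC, TTTGCCGC and TTTGGCGC, for the cell cycle homology region word TTTGAA and for the CCAAT box word CCAAT. RefSeq windows were found for 30 of the 37 members, 32 windows in all, and not for Exo1, Rad54b, Xrcc2, Fancd2, Prkdc, Xpc and Ddb2. An E2F word lay in 8 of the 32 member windows (25.0%), against 2.26% of all 32851 windows. CCAAT lay in 20 (62.5%), against 37.4%, and TTTGAA in 1 (3.12%), against 17.9%. The member windows and all windows were not matched for base composition, and its part in these shares was not tested.

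Members with and without an E2F word were then set side by side. Of the 8 members whose window held one, 1 was at least 1.5-fold lower in Tgfbr2/Smad4 cKO than in wild type (Clspn), and of the 22 without, 6 were, with medians of -0.034 and -0.23. The tied members Brca2, Fancg and Xrcc6 held one, as GCGGGAAA in the capitals of the Xrcc6 window above. A neighbouring word, TTCCCGCC, which overlaps TTTCCCGC, was searched after the printed windows had been seen. It lay in 5 member windows (15.6%), those of Rad51ap1, Fancb, Fancm, Chek1 and Msh6, against 2.19% of all windows, and reads GGCGGGAA in the capitals of Fancb and Chek1. Of these 5 members 2 were at least 1.5-fold lower, against 5 of the 25 without it, with medians of -0.34 and -0.068. The 2 were Fancb and Chek1, whose windows had been printed because these genes were lower. This split therefore follows from how the word was found and says nothing further about E2F words. For either kind of word it was 3 of 12 members with and 4 of 18 without, with medians of -0.16 and -0.0997. The 3 include Fancb and Chek1, so this count carries the same limit, and no conclusion is drawn from it. A word in a window is a description of its letters and not a binding site.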

How the data were processed

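Values were taken from the deposited series table, with 1 log2 value per probe set and array for 35556 probe sets of 3 arrays, and 0 other columns of per-sample values. The deposited values were read as log2 signals from their range of 2.82 to 15.6. How the authors corrected background and normalized the arrays, and with which software, is not given in the sources used here. Array medians differed by at most 0.00412, so no further scaling was applied. Names came from GEO's platform annotation (21789 with 1 symbol, 1621 with several and not used, 12146 not listed) and RefSeq GRCm38.p6, and averaged per gene. Of the members, 35 had 1 probe set.

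Differences are of log2 values between arrays, described by size (2-fold, and 1.5-fold) beside the same share of all named genes, without a level filter and without a test. Values within 1e-09 were counted as equal. The members and lists were chosen with earlier results of these data known. Members at least 1.5-fold different, or the most different of a pathway, were described in full; from other lists, up to 4 at least 2-fold different or the most different one. Alternatives were median centring, quantile and cyclic loess normalization, filters at the median and 75th percentile of signals, other probe set rules, an offset of 32 and other folds. Counting was tested on simulated data. Python 3.11.15, pandas 2.3.3, R 4.3.3 and limma 3.58.1 were used.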

Additional observations from a re-analysis of the deposited data

How the results depend on the processing

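With 1 array per line, the number of arrays limits every value, and 8 of the 36 members averaged under the median signal. Median centring, quantile and cyclic loess normalization and both other probe set rules left each count unchanged and each median within 0.1. The count at least 2-fold lower in Tgfbr2/Smad4 cKO than in wild type, 3, became 0 with the filter at the 75th percentile, which kept 6 members, 1 with 32 added to each linear value, 9 at 1.5-fold and 0 at 3-fold. Against Tgfbr2 cKO the count of 1 became 0 with the filter at the median, 0 with the filter at the 75th percentile, 0 with 32 added, 8 at 1.5-fold and 0 at 3-fold. With 32 added, the differences of Exo1, Fancb and Chek1 from wild type were -1.09, -0.97 and -0.95, since the offset shrinks differences of dim genes. No member described in full changed sign where it was at least 2-fold different. No paired analysis was possible because each group has 1 array.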

Other observations

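Among genes of the same pathways outside the main list, a few were named after their values were seen. Ercc5, the nuclease that makes the 3' cut in nucleotide excision repair, read 9.46 in wild type, 9.43 in Tgfbr2 cKO and 10.10 in Tgfbr2/Smad4 cKO, a difference of 0.64 from wild type, and the glycosylase gene Mpg read 8.66, 8.61 and 9.07. Rpa2 and Rpa1, subunits of the protein that coats unwound DNA, were -0.94 and -0.63 from wild type in the last array, and Gen1, a resolvase of recombination intermediates, was -0.78 from it.

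Bard1 was the member with 3 probe sets. In the Tgfbr2/Smad4 cKO array they differed from wild type by 0, -0.11 and -0.094, so the average of -0.068 holds 1 tied probe set.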
